A study of Mus musculus with 21 samples.

Results

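Smooth muscle contractile genes encode the proteins with which a smooth muscle cell builds force, and 31 of them were followed across the glandular stomachs of 21 mice. The genes were chosen as known members of the contractile programme, in 7 roles: the thick filament and its kinase (4 genes), the actins and actin binding proteins of the thin filament (9), adaptors of the intermediate filament, Z-disc and dense body (6), membrane anchorage (4), calcium handling and channels (4), small heat shock proteins (3) and a transcription cofactor (1). Earlier results of these data were known at the choice, so the counts below describe the set and are no independent test of it. All 31 had a probe set on the array that is annotated to a single gene, and each gene is given by the brightest of its probe sets, as 31 of the 18193 genes measured that way. Levels are log2 of the deposited signal, so a difference of 1 is a doubling, and levels are set against each other only within a gene.

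One Affymetrix Mouse Genome 430 2.0 array was hybridised per mouse, with RNA of the glandular stomach, the acid-secreting and mucus-secreting part of the organ. Wild-type C57BL/6 mice (n = 3) were set beside mice with transgenes under the K19 promoter, which the study uses to express a gene specifically in the stomach: K19-Wnt1 (n = 5), which carries the Wnt ligand Wnt1; K19-Nog (n = 2), which carries noggin, a secreted antagonist of bone morphogenetic proteins (BMPs); K19-C2mE (n = 3), which carries cyclooxygenase-2 together with microsomal prostaglandin E synthase-1 and so makes prostaglandin E2; and the compound genotypes, which join C2mE to Wnt1 (K19-Wnt1/C2mE, n = 5) or to noggin (K19-Nog/C2mE, n = 3). All mice were recorded as females between 18 and 65 weeks old, with no age given per mouse. The study's methods name the strain C57BL/6 beside the wild-type mice only. The transgenes are expressed in epithelium, whereas the contractile genes belong to muscle, so every value below comes from a mixed tissue in which muscle was not separated, and fewer muscle cells in the sample cannot be told apart from less RNA per muscle cell. The plan of the comparisons was each transgenic genotype against wild-type, each C2mE genotype against the same background without C2mE, the C2mE genotypes against each other, and whether the change with C2mE differs with Wnt1 or with noggin present.

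A smooth muscle cell contracts when calcium and calmodulin switch on myosin light chain kinase (Mylk), which phosphorylates the regulatory light chain (Myl9) so that the myosin heavy chain (Myh11) can pull on actin filaments. A myosin phosphatase reverses this step. In the stomach this machinery fills the outer muscle layers, which churn and empty the organ, the thin muscle sheet under the mucosa and the walls of blood vessels. Many of these genes are switched on together by serum response factor with its cofactor myocardin, which bind a short element called the CArG box.

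Promoters of 26 of the 31 genes were found in a RefSeq table of GRCm38.p6, which holds the 250 bases before and the 50 bases after each start; Actg2, Myh11, Tagln, Myocd and Cryab were not matched. The CArG box was searched on the strand of the gene as CC, then 6 letters that are each A or T, then GG, a pattern that reads as itself on the other strand, and again with 1 of the 6 letters allowed to be C or G, which includes the first pattern. The strict pattern was found for 3 of the 26 genes (Myl9, Vcl and Ldb3; 11.5%) against 488 of 27025 genes in the table (1.81%), and the relaxed pattern for 7 (26.9%) against 11.3%. The 4 upstream windows below are shown because they hold the strict box or, for Acta2, a pair of relaxed ones, and because Acta2 and Myl9 rose in K19-Nog while Vcl and Ldb3 did not pass the test there. Capitals mark the boxes, each sequence runs 5′ to 3′ on the strand of the gene, and it ends at the base before the start. Acta2 spans chr19:34255374-34255623 (minus strand), with relaxed boxes 84 to 75 and 34 to 25 bases before the start; Myl9 spans chr2:156775214-156775463 (plus strand), with a strict box 161 to 152 and a relaxed box 99 to 90 bases before it; Vcl spans chr14:20929148-20929397 (plus strand), with a strict box 227 to 218 bases before it; and Ldb3 spans chr14:34588682-34588931 (minus strand), with a strict box 35 to 26 bases before it. A match is a description of letters, not of a bound site.
Acta2: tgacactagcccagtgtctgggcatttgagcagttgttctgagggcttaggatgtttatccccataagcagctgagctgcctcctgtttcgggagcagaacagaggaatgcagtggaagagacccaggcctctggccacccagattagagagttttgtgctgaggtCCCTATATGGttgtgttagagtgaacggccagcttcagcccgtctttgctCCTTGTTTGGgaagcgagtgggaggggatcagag
Myl9: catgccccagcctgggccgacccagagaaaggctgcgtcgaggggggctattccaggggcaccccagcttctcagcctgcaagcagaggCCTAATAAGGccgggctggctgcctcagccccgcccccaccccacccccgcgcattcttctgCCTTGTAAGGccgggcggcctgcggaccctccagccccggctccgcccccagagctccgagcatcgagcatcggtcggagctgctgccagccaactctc
Vcl: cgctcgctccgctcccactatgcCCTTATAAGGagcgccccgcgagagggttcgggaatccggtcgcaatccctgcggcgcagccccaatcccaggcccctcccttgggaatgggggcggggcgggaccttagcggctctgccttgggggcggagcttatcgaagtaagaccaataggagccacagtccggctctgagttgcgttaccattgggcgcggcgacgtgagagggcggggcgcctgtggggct
Ldb3: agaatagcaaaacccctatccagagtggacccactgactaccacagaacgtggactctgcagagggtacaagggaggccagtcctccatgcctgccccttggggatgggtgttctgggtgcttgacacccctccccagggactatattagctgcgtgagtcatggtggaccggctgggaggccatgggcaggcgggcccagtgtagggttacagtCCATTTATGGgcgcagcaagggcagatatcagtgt

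Before the muscle genes, 3 facts of the arrays bear on the comparisons. One is that the labels give females throughout, but the mean level of the Y-linked genes Kdm5d, Eif2s3y and Uty was 7.06 to 7.63 in 9 of the 21 arrays (wild-type 1 and 3, K19-Wnt1 1, 2, 4 and 5, K19-C2mE 2 and 3, and K19-Wnt1/C2mE 5) and 3.29 to 3.60 in the remaining 12, which include both K19-Nog and all 3 K19-Nog/C2mE arrays. Another is that genes of the forestomach's squamous epithelium, the stratified lining next to the labelled tissue, had a mean level of 8.09 to 10.26 in K19-C2mE and 6.02 to 8.81 in K19-Wnt1/C2mE, against 5.54 to 7.16 in wild-type and 5.51 to 5.54 in K19-Nog; the summed squamous signal was 17700 to 88180 in K19-C2mE against 2450 to 9142 in wild-type, where wild-type 2 was the highest. The 14 markers of glandular epithelium had a mean level of 12.31 to 13.15 in every array, but single markers moved in opposite directions with C2mE: Gkn3 rose by 2.40, 2.92 and 2.58 with C2mE alone, with Wnt1 and with noggin, while Pgc, the pepsinogen of chief cells, gave -2.01 (adjusted p = 0.0865) with C2mE alone and fell by 4.06 and 6.33 in the compound genotypes. Markers of acid-secreting parietal cells read 12.26 to 12.36 in wild-type, 12.07 and 12.20 in K19-Nog and 6.38 to 10.56 in the 11 C2mE mice. Cyclooxygenase-2 (Ptgs2) rose by 2.27 to 2.76 in the 3 C2mE genotypes, but the probe set of the second C2mE gene, Ptges, gave 0.26, 0.34 and 0.07 (adjusted p = 0.336, 0.118 and 0.832), and those of noggin and Wnt1 did not move with the label either: Nog read 4.52 and 4.56 in K19-Nog against 4.42 to 4.50 in wild-type. Whether those probes lie inside the transgenes is not stated, so they check nothing about the labels.

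The contractile genes stood highest in the mice with noggin alone and lowest in the mice with C2mE. In K19-Nog 26 of the 31 rose against wild-type and none fell (limma, adjusted p under 0.05), where 3.07% of all genes were called, 2.12% higher and 0.945% lower. The median change of the 31 genes was 1.64 on the log2 scale, against -0.04 for all 18193 genes, and both K19-Nog arrays lay above all other 19 arrays for 26 of the 31 genes, against 4.18% of all genes. In K19-C2mE 10 fell and 1 rose (29.1% of all genes called, 13.7% lower and 15.4% higher; median -0.44), in K19-Wnt1/C2mE 19 fell and 2 rose (43.6% of all genes called, 22.5% lower and 21.1% higher; median -0.55), and in K19-Nog/C2mE 13 fell and 2 rose (32.6% of all genes called, 16.6% lower and 16.0% higher; median -0.51). No contractile gene was called in K19-Wnt1 (median 0.05), where 0.0110% of all genes were called. There 0 of the 31 had an unadjusted p under 0.05, against 6.23% of all genes, and the methods' t-test called 0 as well. The comparisons with wild-type share the same 3 wild-type arrays. The heat map of the 31 genes shows these differences array by array.

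**Figure D1:**
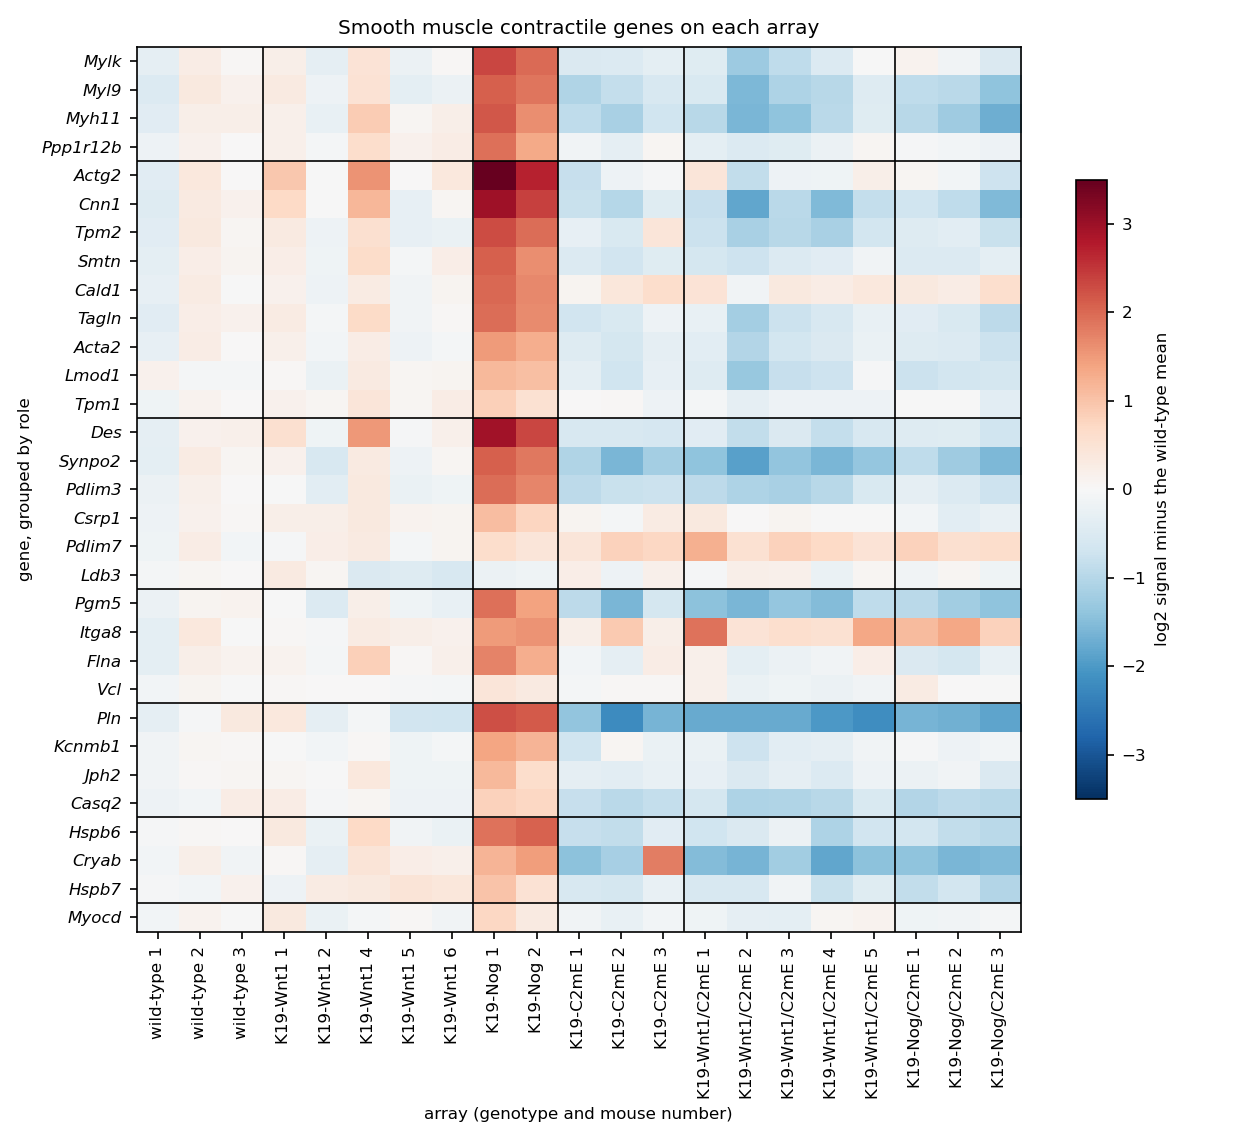
Log2 signal of the 31 contractile genes (rows, grouped by role) on each of the 21 arrays (columns, grouped by genotype), minus the mean of the 3 wild-type arrays. Both K19-Nog columns are red for nearly all genes, and the 11 C2mE columns are blue for most, with Pdlim7, Itga8 and, in most of these columns, Cald1 red instead.

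Averaged over the 31 genes, the difference from the wild-type mean was 1.65 and 1.36 in the K19-Nog mice. It was -0.23, 0.17 and 0.06 in the wild-type mice themselves and -0.12 to 0.45 in K19-Wnt1. In the C2mE genotypes it was -0.49, -0.52 and -0.18 in K19-C2mE, -0.38, -0.46 and -0.64 in K19-Nog/C2mE, and -0.82 to -0.30 in K19-Wnt1/C2mE. Single mice stood apart across much of the set: wild-type 1 was the lowest wild-type array for 28 of the 31 genes, K19-Wnt1 4 the highest of its genotype for 25, and K19-Wnt1/C2mE 2 the lowest of its genotype for 21. Each K19-Nog mouse had 30 of the 31 genes above the wild-type mean, against 41.7% and 43.3% of all genes, and no mouse of another genotype reached the average difference of either.

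Among the thick filament genes, all 4 rose in K19-Nog. Myh11 encodes the smooth muscle myosin heavy chain, the motor itself and the most specific marker of the cell type. Myh11 was at 9.25, 9.83 and 9.83 in wild-type, 9.81, 9.38, 10.53, 9.70 and 9.85 in K19-Wnt1, 11.81 and 11.25 in K19-Nog, 8.75, 8.49 and 8.95 in K19-C2mE, 8.67, 8.39 and 7.92 in K19-Nog/C2mE, and 8.66, 8.04, 8.23, 8.69 and 9.22 in K19-Wnt1/C2mE. Both K19-Nog mice lay above every other mouse and all 11 C2mE mice lay below all 8 wild-type and K19-Wnt1 mice. Myh11 rose by 1.90 ± 0.33 (SE; adjusted p = 0.00162) in K19-Nog, or 3.72-fold, and fell by 0.91 ± 0.29, 1.07 ± 0.26 and 1.31 ± 0.29 in mice with C2mE alone, with Wnt1 and with noggin, the order kept in the rest of the text (adjusted p = 0.0246, 0.00261 and 0.00175). Its rise in K19-Nog did not pass without K19-Nog 1 (1.62, adjusted p = 0.0708).

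Myl9 is the regulatory light chain whose phosphorylation starts contraction. Myl9 gave 10.45, 11.28 and 11.07 in wild-type, 11.26, 10.76, 11.44, 10.58 and 10.73 in K19-Wnt1, 13.04 and 12.81 in K19-Nog, 9.87, 10.11 and 10.37 in K19-C2mE, 10.05, 9.98 and 9.54 in K19-Nog/C2mE, and 10.40, 9.36, 9.86, 9.98 and 10.48 in K19-Wnt1/C2mE. For Myl9, both K19-Nog mice lay above all other mice and 10 of the 11 C2mE mice lay below every wild-type mouse. It followed Myh11, with a rise of 1.99 ± 0.31 (adjusted p = 0.000581) in K19-Nog and falls of 0.82 ± 0.27, 0.92 ± 0.24 and 1.08 ± 0.27 with C2mE (adjusted p = 0.0304, 0.00495 and 0.00497). Mylk encodes the kinase of that light chain. Mylk stood at 9.60, 10.18 and 9.95 in wild-type, 10.11, 9.60, 10.39, 9.71 and 9.96 in K19-Wnt1, 12.26 and 11.89 in K19-Nog, 9.42, 9.43 and 9.58 in K19-C2mE, 10.04, 9.80 and 9.40 in K19-Nog/C2mE, and 9.48, 8.63, 9.04, 9.44 and 9.90 in K19-Wnt1/C2mE. 8 of the 11 C2mE mice were below the lowest Mylk level of wild-type, and both K19-Nog mice were above all other mice. The kinase rose by 2.16 ± 0.29 (adjusted p = 0.000117) in K19-Nog and fell in K19-Wnt1/C2mE (-0.62 ± 0.23, adjusted p = 0.0361), with -0.44 ± 0.26 and -0.16 ± 0.26 with C2mE alone and with noggin, which did not pass. Ppp1r12b is a targeting subunit of the myosin phosphatase, which undoes the kinase's work. Ppp1r12b measured 7.22, 7.55 and 7.42 in wild-type, 7.57, 7.34, 8.02, 7.54 and 7.65 in K19-Wnt1, 9.33 and 8.74 in K19-Nog, 7.27, 7.09 and 7.46 in K19-C2mE, 7.36, 7.31 and 7.21 in K19-Nog/C2mE, and 7.05, 6.92, 6.98, 7.20 and 7.45 in K19-Wnt1/C2mE. The Ppp1r12b levels of both K19-Nog mice were the highest, and 6 of the 11 C2mE mice read less than any wild-type mouse. It rose together with the kinase in K19-Nog, by 1.64 ± 0.19 (adjusted p = 3.01e-05), and Ppp1r12b was not called in any C2mE genotype against wild-type (-0.12 ± 0.17, -0.28 ± 0.15 and -0.10 ± 0.17).

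All 9 thin filament genes rose in K19-Nog, and the 2 largest rises of the 31 genes were in this group. Actg2 encodes the gamma actin that marks visceral smooth muscle of the gut. Actg2 read 8.88, 9.64 and 9.28 in wild-type, 10.21, 9.25, 10.85, 9.29 and 9.64 in K19-Wnt1, 12.79 and 11.96 in K19-Nog, 8.45, 9.09 and 9.24 in K19-C2mE, 9.34, 9.18 and 8.54 in K19-Nog/C2mE, and 9.69, 8.40, 9.08, 9.13 and 9.46 in K19-Wnt1/C2mE. For Actg2, both K19-Nog mice lay above all other mice and 3 of the 11 C2mE mice lay below every wild-type mouse. The K19-Nog mice stood 3.11 ± 0.43 above wild-type (adjusted p = 0.000177), an 8.63-fold rise and the largest of the 31 genes, while no C2mE genotype differed from wild-type by the test (-0.34 ± 0.38, -0.12 ± 0.34 and -0.25 ± 0.38). Acta2 encodes the alpha actin found in vascular as well as visceral muscle and in myofibroblasts. Acta2 was at 12.44, 12.99 and 12.73 in wild-type, 12.90, 12.61, 12.99, 12.53 and 12.66 in K19-Wnt1, 14.22 and 14 in K19-Nog, 12.26, 12.11 and 12.40 in K19-C2mE, 12.28, 12.23 and 11.95 in K19-Nog/C2mE, and 12.36, 11.69, 12.07, 12.21 and 12.49 in K19-Wnt1/C2mE. 10 of the 11 C2mE mice were below the lowest Acta2 level of wild-type, and both K19-Nog mice were above all other mice. It rose by 1.39 ± 0.20 (adjusted p = 0.000263) in K19-Nog and fell in K19-Wnt1/C2mE and K19-Nog/C2mE (-0.55 ± 0.16 and -0.56 ± 0.18, adjusted p = 0.00859 and 0.0200), with -0.46 ± 0.18 (adjusted p = 0.0578) in K19-C2mE.

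Cnn1 (calponin) and Tagln (transgelin) are actin binding proteins used as markers of differentiated smooth muscle. Cnn1 gave 8.87, 9.64 and 9.46 in wild-type, 10.02, 9.30, 10.48, 9.05 and 9.38 in K19-Wnt1, 12.29 and 11.73 in K19-Nog, 8.55, 8.32 and 8.90 in K19-C2mE, 8.62, 8.42 and 7.77 in K19-Nog/C2mE, and 8.52, 7.51, 8.37, 7.78 and 8.50 in K19-Wnt1/C2mE. The Cnn1 levels of both K19-Nog mice were the highest, and 10 of the 11 C2mE mice read less than any wild-type mouse. Cnn1 rose by 2.68 ± 0.38 (adjusted p = 0.000265) in K19-Nog, and fell by 1.19 ± 0.31 and 1.05 ± 0.34 in the compound genotypes (adjusted p = 0.00421 and 0.0247). Tagln stood at 11.09, 11.71 and 11.62 in wild-type, 11.76, 11.41, 12.14, 11.34 and 11.50 in K19-Wnt1, 13.43 and 13.12 in K19-Nog, 10.79, 10.95 and 11.29 in K19-C2mE, 11.06, 10.94 and 10.57 in K19-Nog/C2mE, and 11.21, 10.27, 10.73, 10.92 and 11.21 in K19-Wnt1/C2mE. For Tagln, both K19-Nog mice lay above all other mice and 8 of the 11 C2mE mice lay below every wild-type mouse. Tagln rose by 1.80 ± 0.27 (adjusted p = 0.000430) in K19-Nog and fell in K19-Wnt1/C2mE (-0.60 ± 0.22, adjusted p = 0.0297); it gave -0.46 ± 0.24 with C2mE alone and -0.61 ± 0.24 with noggin, which did not pass. Smtn (smoothelin) is a cytoskeletal protein of fully contractile muscle. Smtn measured 7.67, 8.26 and 8.11 in wild-type, 8.25, 7.87, 8.65, 7.95 and 8.25 in K19-Wnt1, 10.10 and 9.65 in K19-Nog, 7.54, 7.35 and 7.58 in K19-C2mE, 7.54, 7.54 and 7.66 in K19-Nog/C2mE, and 7.40, 7.29, 7.55, 7.61 and 7.90 in K19-Wnt1/C2mE. 10 of the 11 C2mE mice were below the lowest Smtn level of wild-type, and both K19-Nog mice were above all other mice. It rose by 1.86 ± 0.21 (adjusted p = 2.33e-05) in K19-Nog and fell by 0.53 ± 0.19 and 0.47 ± 0.17 in K19-C2mE and K19-Wnt1/C2mE (adjusted p = 0.0415 and 0.0305). Lmod1 (leiomodin) nucleates actin filaments in smooth muscle. Lmod1 read 6.86, 6.64 and 6.66 in wild-type, 6.75, 6.48, 7.02, 6.77 and 6.81 in K19-Wnt1, 7.85 and 7.77 in K19-Nog, 6.37, 6.02 and 6.43 in K19-C2mE, 5.96, 6.08 and 6.11 in K19-Nog/C2mE, and 6.27, 5.40, 5.92, 6.0 and 6.67 in K19-Wnt1/C2mE. The Lmod1 levels of both K19-Nog mice were the highest, and 10 of the 11 C2mE mice read less than any wild-type mouse. The rise in K19-Nog was 1.09 ± 0.23 (adjusted p = 0.0111), which did not pass without either K19-Nog mouse (1.06 and 1.13, adjusted p = 0.130 and 0.0811), and the falls were 0.66 ± 0.19 and 0.67 ± 0.21 in the compound genotypes (adjusted p = 0.00762 and 0.0200).

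Tropomyosins lie along the actin filament and set which myosins can bind it. Tpm1 was at 11.99, 12.26 and 12.14 in wild-type, 12.27, 12.20, 12.57, 12.19 and 12.38 in K19-Wnt1, 12.96 and 12.68 in K19-Nog, 12.15, 12.17 and 11.96 in K19-C2mE, 12.11, 12.12 and 11.76 in K19-Nog/C2mE, and 12.06, 11.81, 11.95, 11.97 and 11.94 in K19-Wnt1/C2mE. For Tpm1, both K19-Nog mice lay above all other mice and 6 of the 11 C2mE mice lay below every wild-type mouse. Tpm1, which many cell types make, rose by 0.69 ± 0.13 (adjusted p = 0.00479), the smallest rise of the thin filament group, and its value without K19-Nog 1 was 0.54 (adjusted p = 0.157). Tpm2 gave 10.67, 11.39 and 11.14 in wild-type, 11.37, 10.90, 11.63, 10.78 and 10.83 in K19-Wnt1, 13.36 and 13.03 in K19-Nog, 10.78, 10.52 and 11.50 in K19-C2mE, 10.60, 10.69 and 10.28 in K19-Nog/C2mE, and 10.31, 9.93, 10.10, 9.93 and 10.43 in K19-Wnt1/C2mE. 8 of the 11 C2mE mice were below the lowest Tpm2 level of wild-type, and both K19-Nog mice were above all other mice. Tpm2 rose by 2.13 ± 0.28 (adjusted p = 0.000113) in K19-Nog and fell by 0.93 ± 0.22 (adjusted p = 0.00248) in K19-Wnt1/C2mE. Among the comparisons between C2mE genotypes it was the single contractile gene called, with a difference of -0.80 ± 0.22 in K19-Wnt1/C2mE from K19-C2mE (adjusted p = 0.0338; 7.88% of all genes were called, 4.44% lower and 3.44% higher), where K19-C2mE 3 read 11.50 and all 5 K19-Wnt1/C2mE mice read 10.43 or less. That call was lost when any 1 of 5 C2mE mice was left out, K19-C2mE 1 or 3 or K19-Wnt1/C2mE 2, 3 or 4 (adjusted p up to 0.259). Cald1 (caldesmon) restrains myosin on the actin filament and exists in muscle and non-muscle forms, which this probe set need not separate. Cald1 stood at 9.93, 10.48 and 10.20 in wild-type, 10.34, 10.03, 10.49, 10.08 and 10.31 in K19-Wnt1, 12.20 and 11.87 in K19-Nog, 10.29, 10.61 and 10.83 in K19-C2mE, 10.55, 10.46 and 10.80 in K19-Nog/C2mE, and 10.67, 10.08, 10.56, 10.46 and 10.58 in K19-Wnt1/C2mE. Both K19-Nog mice were again the highest, but 7 of the 11 C2mE mice lay above every wild-type mouse and none below. Cald1 rose by 1.83 ± 0.19 (adjusted p = 1.31e-05) in K19-Nog and gave 0.37 ± 0.17, 0.27 ± 0.16 and 0.40 ± 0.17 in the C2mE genotypes, none of which passed.

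**Figure D2:**
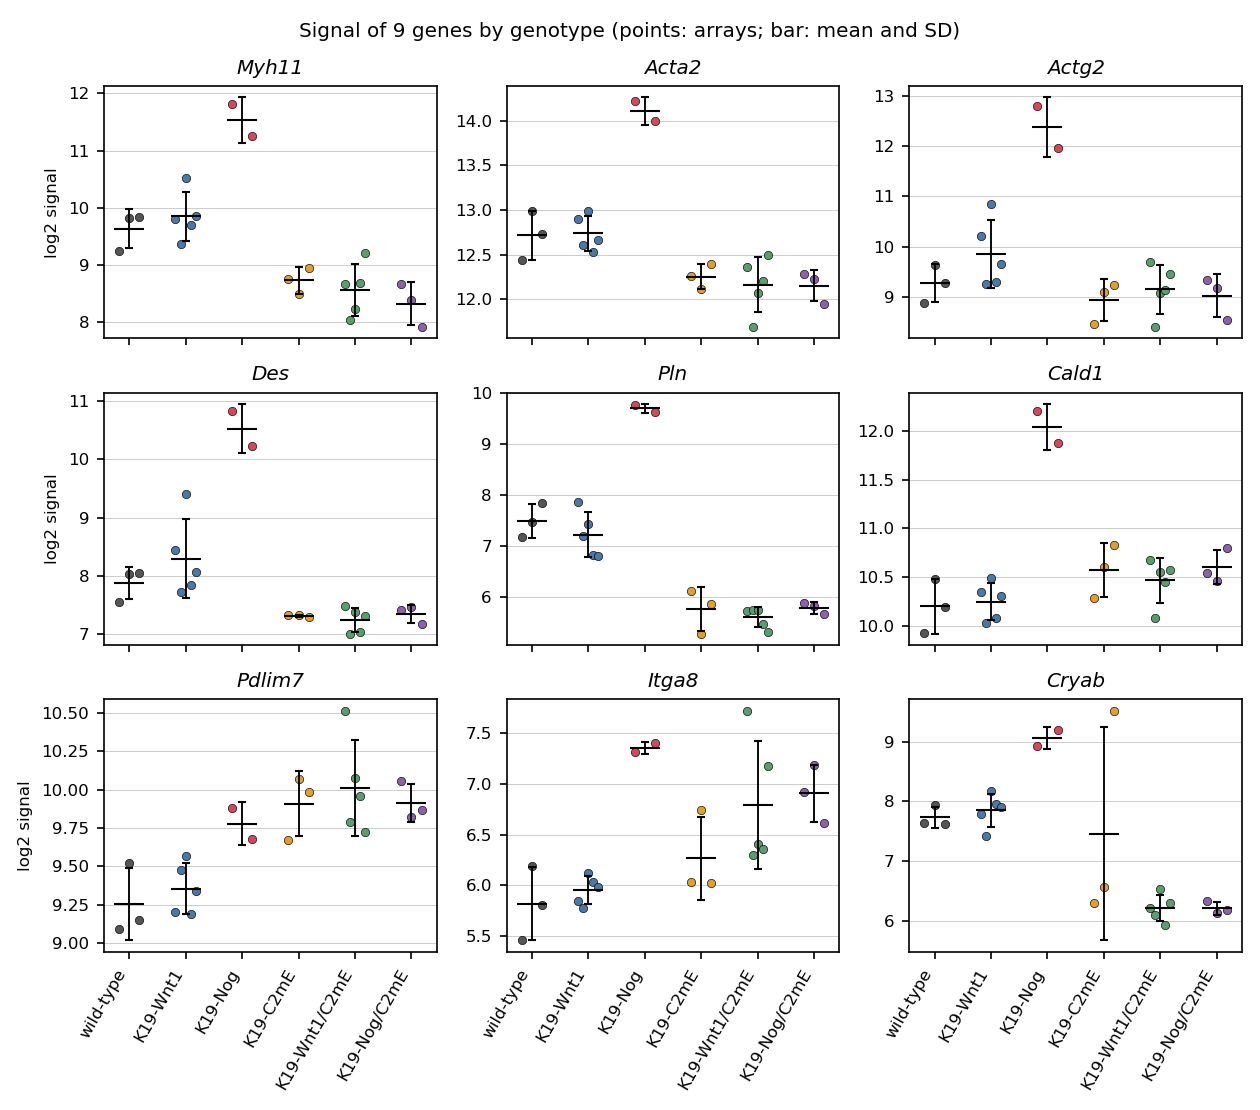
Log2 signal of 9 contractile genes by genotype, with a point per array and a bar at the mean with its SD. Myh11, Acta2, Actg2, Des, Pln and Cald1 stand highest in K19-Nog, Pdlim7 and Itga8 stand above wild-type in C2mE mice as well, and Cryab is split by 1 K19-C2mE array at 9.52.

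The intermediate filament and adaptor genes divided. Des (desmin) forms the intermediate filaments of muscle cells. Des measured 7.56, 8.03 and 8.06 in wild-type, 8.44, 7.73, 9.40, 7.84 and 8.07 in K19-Wnt1, 10.82 and 10.23 in K19-Nog, 7.33, 7.33 and 7.30 in K19-C2mE, 7.42, 7.47 and 7.18 in K19-Nog/C2mE, and 7.48, 7.01, 7.38, 7.04 and 7.32 in K19-Wnt1/C2mE. Des rose 6.26-fold in K19-Nog (2.65 ± 0.33, adjusted p = 6.27e-05); all 11 C2mE mice lay below all 8 wild-type and K19-Wnt1 mice, yet the changes of -0.56 ± 0.29, -0.64 ± 0.26 and -0.53 ± 0.29 against wild-type did not pass, while the fall against K19-Wnt1 did (-1.05 ± 0.23, adjusted p = 0.000868). The K19-Wnt1 mean there rests partly on K19-Wnt1 4 at 9.40. Synpo2 (myopodin) crosslinks actin at Z-discs and dense bodies. Synpo2 read 7.48, 8.13 and 7.89 in wild-type, 8.0, 7.26, 8.16, 7.65 and 7.91 in K19-Wnt1, 9.92 and 9.69 in K19-Nog, 6.78, 6.23 and 6.64 in K19-C2mE, 6.94, 6.59 and 6.27 in K19-Nog/C2mE, and 6.42, 5.94, 6.46, 6.23 and 6.47 in K19-Wnt1/C2mE. Synpo2 showed the same separation with larger falls of 1.28 ± 0.22, 1.53 ± 0.20 and 1.23 ± 0.22 (adjusted p = 0.000222, 4.42e-06 and 0.000264) and a rise of 1.97 ± 0.25 (adjusted p = 7.19e-05) in K19-Nog. Its other 3 probe sets rose in K19-Nog too, by 1.30, 2.22 and 2.39, but gave -0.02, 0.16 and 0.41 in K19-C2mE. In that genotype the fall was thus seen on the brightest probe set and not on the others.

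Pdlim3 is a PDZ and LIM domain adaptor that binds alpha-actinin at the Z-disc. Pdlim3 was at 8.18, 8.58 and 8.42 in wild-type, 8.38, 8.02, 8.74, 8.16 and 8.25 in K19-Wnt1, 10.35 and 10.11 in K19-Nog, 7.47, 7.62 and 7.63 in K19-C2mE, 8.07, 7.92 and 7.66 in K19-Nog/C2mE, and 7.47, 7.31, 7.25, 7.43 and 7.85 in K19-Wnt1/C2mE. The Pdlim3 levels of both K19-Nog mice were the highest, and all 11 C2mE mice read less than any wild-type mouse. It rose by 1.83 ± 0.19 (adjusted p = 9.69e-06) in K19-Nog and fell by 0.82 ± 0.17, 0.93 ± 0.15 and 0.51 ± 0.17 with C2mE (adjusted p = 0.00114, 6.17e-05 and 0.0273). Its relative Pdlim7, an adaptor found in many cell types, went the other way. Pdlim7 gave 9.09, 9.53 and 9.15 in wild-type, 9.20, 9.48, 9.56, 9.19 and 9.34 in K19-Wnt1, 9.88 and 9.68 in K19-Nog, 9.67, 10.07 and 9.98 in K19-C2mE, 10.05, 9.82 and 9.87 in K19-Nog/C2mE, and 10.51, 9.79, 10.07, 9.96 and 9.72 in K19-Wnt1/C2mE. Pdlim7 rose by 0.65 ± 0.17, 0.75 ± 0.15 and 0.66 ± 0.17 in every C2mE genotype (adjusted p = 0.00721, 0.000554 and 0.00587), with every C2mE mouse above every wild-type and K19-Wnt1 mouse, and gave 0.52 ± 0.19 (adjusted p = 0.171) in K19-Nog. A second Pdlim7 probe set gave -0.31 in K19-C2mE, opposite in sign. Csrp1 is a LIM protein that binds alpha-actinin and zyxin. Csrp1 stood at 10.78, 11.12 and 11.01 in wild-type, 11.17, 11.18, 11.30, 11.10 and 11.06 in K19-Wnt1, 12.06 and 11.71 in K19-Nog, 11.06, 10.91 and 11.27 in K19-C2mE, 10.86, 10.61 and 10.71 in K19-Nog/C2mE, and 11.32, 10.97, 11.05, 10.96 and 10.97 in K19-Wnt1/C2mE. For Csrp1, both K19-Nog mice lay above all other mice and 2 of the 11 C2mE mice lay below every wild-type mouse. It rose by 0.91 ± 0.14 (adjusted p = 0.000437) in K19-Nog and stayed within -0.24 ± 0.12 to 0.11 ± 0.12 in the C2mE genotypes, with no call. Ldb3, a Z-disc protein of striated muscle, was below the median level of all probe sets (6.09) on every array (4.39 to 5.26). None of its comparisons was called, although a dimmer probe set of the gene rose by 1.21 in K19-Nog.

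Of the genes that anchor the contractile apparatus to the membrane, Flna (filamin A) crosslinks actin in many cell types. Flna measured 9.36, 9.91 and 9.82 in wild-type, 9.83, 9.62, 10.54, 9.74 and 9.87 in K19-Wnt1, 11.42 and 10.98 in K19-Nog, 9.61, 9.38 and 9.95 in K19-C2mE, 9.19, 9.09 and 9.44 in K19-Nog/C2mE, and 9.88, 9.35, 9.48, 9.57 and 9.92 in K19-Wnt1/C2mE. 3 of the 11 C2mE mice were below the lowest Flna level of wild-type, and both K19-Nog mice were above all other mice. It rose by 1.50 ± 0.24 (adjusted p = 0.00101) in K19-Nog and was called in no C2mE genotype (-0.05 ± 0.22, -0.06 ± 0.20 and -0.46 ± 0.22). Vcl (vinculin) couples integrins to actin at adhesion plaques of nearly all adherent cells. Vcl read 10.27, 10.47 and 10.37 in wild-type, 10.40, 10.39, 10.37, 10.32 and 10.29 in K19-Wnt1, 10.79 and 10.69 in K19-Nog, 10.29, 10.41 and 10.41 in K19-C2mE, 10.65, 10.38 and 10.36 in K19-Nog/C2mE, and 10.54, 10.13, 10.22, 10.17 and 10.26 in K19-Wnt1/C2mE. The Vcl levels of both K19-Nog mice were the highest, and 4 of the 11 C2mE mice read less than any wild-type mouse. Its range over all 21 mice was 10.13 to 10.79, and both K19-Nog mice were the highest, but the difference of 0.37 ± 0.11 did not pass (adjusted p = 0.0828). Pgm5 (aciculin) is a muscle protein of adhesion plaques. Pgm5 was at 7.05, 7.37 and 7.39 in wild-type, 7.26, 6.80, 7.47, 7.12 and 7.02 in K19-Wnt1, 9.19 and 8.68 in K19-Nog, 6.34, 5.67 and 6.66 in K19-C2mE, 6.32, 6.05 and 5.88 in K19-Nog/C2mE, and 5.84, 5.66, 5.92, 5.76 and 6.37 in K19-Wnt1/C2mE. Pgm5 rose by 1.66 ± 0.25 (adjusted p = 0.000465) in K19-Nog and fell by 1.05 ± 0.22, 1.36 ± 0.20 and 1.19 ± 0.22 with C2mE (adjusted p = 0.00156, 2.04e-05 and 0.000423), with the 11 C2mE mice all below the 8 wild-type and K19-Wnt1 mice. Itga8 is the alpha 8 integrin chain, a receptor for matrix on smooth muscle and other mesenchymal cells. Itga8 gave 5.46, 6.19 and 5.81 in wild-type, 5.85, 5.77, 6.12, 6.04 and 5.98 in K19-Wnt1, 7.31 and 7.40 in K19-Nog, 6.03, 6.74 and 6.02 in K19-C2mE, 6.92, 7.18 and 6.62 in K19-Nog/C2mE, and 7.72, 6.30, 6.41, 6.36 and 7.18 in K19-Wnt1/C2mE. In 9 of the 11 C2mE mice it lay above every wild-type mouse, and K19-Wnt1/C2mE 1 lay above both K19-Nog mice. It rose in K19-Nog (1.54 ± 0.33, adjusted p = 0.0119) and also in K19-Wnt1/C2mE and K19-Nog/C2mE (0.97 ± 0.27 and 1.09 ± 0.30, adjusted p = 0.00598 and 0.00831), and was the only one of the 31 genes that rose in all 3 of these genotypes. Without wild-type 1 or either K19-Nog mouse its rise in K19-Nog did not pass (adjusted p = 0.0651, 0.105 and 0.112).

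Among the calcium handling genes was the largest fall of the 31. Pln (phospholamban), the gene concerned, is the brake on the calcium pump of the sarcoplasmic reticulum. Pln stood at 7.19, 7.47 and 7.85 in wild-type, 7.87, 7.19, 7.43, 6.83 and 6.82 in K19-Wnt1, 9.76 and 9.64 in K19-Nog, 6.13, 5.29 and 5.86 in K19-C2mE, 5.88, 5.83 and 5.67 in K19-Nog/C2mE, and 5.74, 5.75, 5.75, 5.48 and 5.32 in K19-Wnt1/C2mE. Every C2mE mouse lay at 6.13 or below and every wild-type and K19-Wnt1 mouse at 6.82 or above, a fall of 1.74 ± 0.24, 1.89 ± 0.21 and 1.71 ± 0.24 in the 3 genotypes (adjusted p = 1.99e-05, 8.20e-07 and 2.00e-05), or 3.34-, 3.72- and 3.27-fold. K19-Nog was 2.20 ± 0.27 above wild-type (adjusted p = 5.18e-05), and the other 2 probe sets of Pln moved in the same directions. Casq2 (calsequestrin 2) stores calcium in the reticulum; it ranged from 5.77 to 6.33 in C2mE mice, from 6.67 to 7.11 in wild-type and K19-Wnt1 mice and was 7.65 and 7.58 in K19-Nog, with falls of 0.87 ± 0.15, 0.85 ± 0.13 and 0.97 ± 0.15 (adjusted p = 0.000167, 3.44e-05 and 4.16e-05). Its rise in K19-Nog was 0.76 ± 0.16 (adjusted p = 0.0116), which did not pass without wild-type 1, K19-Nog 1 or K19-Nog 2 (adjusted p = 0.0633, 0.142 and 0.0765). Jph2 (junctophilin 2) ties the reticulum to the plasma membrane. Jph2 measured 7.20, 7.37 and 7.39 in wild-type, 7.40, 7.30, 7.68, 7.16 and 7.18 in K19-Wnt1, 8.44 and 7.92 in K19-Nog, 7.01, 6.94 and 7.06 in K19-C2mE, 7.12, 7.19 and 6.81 in K19-Nog/C2mE, and 7.04, 6.82, 7.0, 6.85 and 7.13 in K19-Wnt1/C2mE. For Jph2, both K19-Nog mice lay above all other mice and all 11 C2mE mice lay below every wild-type mouse. Jph2 rose by 0.86 ± 0.16 (adjusted p = 0.00308) in K19-Nog and fell in K19-Wnt1/C2mE (-0.35 ± 0.13, adjusted p = 0.0324); the rise was 0.60 without K19-Nog 1 (adjusted p = 0.151). Kcnmb1 is the beta 1 subunit of the large-conductance potassium channel, which relaxes smooth muscle. Kcnmb1 read 5.99, 6.19 and 6.14 in wild-type, 6.11, 6.01, 6.15, 5.96 and 6.03 in K19-Wnt1, 7.49 and 7.30 in K19-Nog, 5.41, 6.18 and 5.89 in K19-C2mE, 6.08, 5.92 and 6.0 in K19-Nog/C2mE, and 5.89, 5.39, 5.75, 5.80 and 5.99 in K19-Wnt1/C2mE. 7 of the 11 C2mE mice were below the lowest Kcnmb1 level of wild-type, and both K19-Nog mice were above all other mice. It rose by 1.29 ± 0.17 (adjusted p = 0.000117) in K19-Nog, and the fall of 0.34 ± 0.14 in K19-Wnt1/C2mE lay just inside the threshold (adjusted p = 0.0487).

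The 3 small heat shock proteins are chaperones that muscle holds at high levels. Hspb6 was at 7.26, 7.32 and 7.29 in wild-type, 7.63, 7.04, 7.99, 7.16 and 7.05 in K19-Wnt1, 9.19 and 9.37 in K19-Nog, 6.50, 6.44 and 6.88 in K19-C2mE, 6.66, 6.43 and 6.35 in K19-Nog/C2mE, and 6.61, 6.79, 7.09, 6.20 and 6.61 in K19-Wnt1/C2mE. The Hspb6 levels of both K19-Nog mice were the highest, and all 11 C2mE mice read less than any wild-type mouse. Hspb6 (Hsp20) rose by 1.99 ± 0.25 (adjusted p = 6.27e-05) in K19-Nog and fell by 0.68 ± 0.22, 0.63 ± 0.20 and 0.81 ± 0.22 with C2mE (adjusted p = 0.0253, 0.0148 and 0.00824). Hspb7 gave 7.17, 7.12 and 7.36 in wild-type, 7.05, 7.51, 7.55, 7.68 and 7.61 in K19-Wnt1, 8.23 and 7.71 in K19-Nog, 6.67, 6.60 and 6.95 in K19-C2mE, 6.35, 6.56 and 6.19 in K19-Nog/C2mE, and 6.64, 6.66, 7.08, 6.43 and 6.78 in K19-Wnt1/C2mE. For Hspb7, both K19-Nog mice lay above all other mice and all 11 C2mE mice lay below every wild-type mouse. Hspb7 followed with a smaller rise of 0.75 ± 0.19 (adjusted p = 0.0385), which did not pass without any 1 of the wild-type mice or without K19-Nog 1 (0.50, adjusted p = 0.476), and falls of 0.48 ± 0.17, 0.50 ± 0.16 and 0.85 ± 0.17 (adjusted p = 0.0461, 0.0144 and 0.000916). Cryab (alpha B-crystallin) is made by several other cell types too. Cryab stood at 7.64, 7.94 and 7.62 in wild-type, 7.79, 7.42, 8.18, 7.96 and 7.90 in K19-Wnt1, 8.94 and 9.20 in K19-Nog, 6.29, 6.57 and 9.52 in K19-C2mE, 6.34, 6.12 and 6.18 in K19-Nog/C2mE, and 6.22, 6.10, 6.52, 5.93 and 6.29 in K19-Wnt1/C2mE. In 10 of the 11 C2mE mice Cryab lay at 6.57 or below and under every wild-type mouse, but K19-C2mE 3, the array with the highest squamous level, read 9.52. Cryab fell in K19-Wnt1/C2mE and K19-Nog/C2mE (-1.52 ± 0.45 and -1.52 ± 0.50, adjusted p = 0.00965 and 0.0249) and gave -0.27 ± 0.50 (adjusted p = 0.720) in K19-C2mE; in K19-Nog the difference was 1.33 ± 0.56 (adjusted p = 0.248), which did not pass.

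Myocd (myocardin) is the cofactor of serum response factor that drives the contractile programme. Myocd measured 5.89, 6.10 and 5.97 in wild-type, 6.34, 5.74, 5.91, 6.04 and 5.85 in K19-Wnt1, 6.70 and 6.31 in K19-Nog, 5.86, 5.72 and 5.88 in K19-C2mE, 5.83, 5.87 and 5.91 in K19-Nog/C2mE, and 5.84, 5.68, 5.64, 6.06 and 6.11 in K19-Wnt1/C2mE. K19-Nog 1 was the highest of all mice, while K19-Wnt1 1 lay above K19-Nog 2. Myocd lay between 5.64 and 6.70 in all mice and passed no test against wild-type (0.52 ± 0.16 in K19-Nog, adjusted p = 0.0950; -0.17 ± 0.14, -0.12 ± 0.13 and -0.11 ± 0.14 in the C2mE genotypes). The 1 comparison that called it was K19-Nog/C2mE against K19-Nog (-0.63 ± 0.16, adjusted p = 0.00569), and that call was lost without K19-Nog 1 (-0.43, adjusted p = 0.148).

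**Figure D3:**
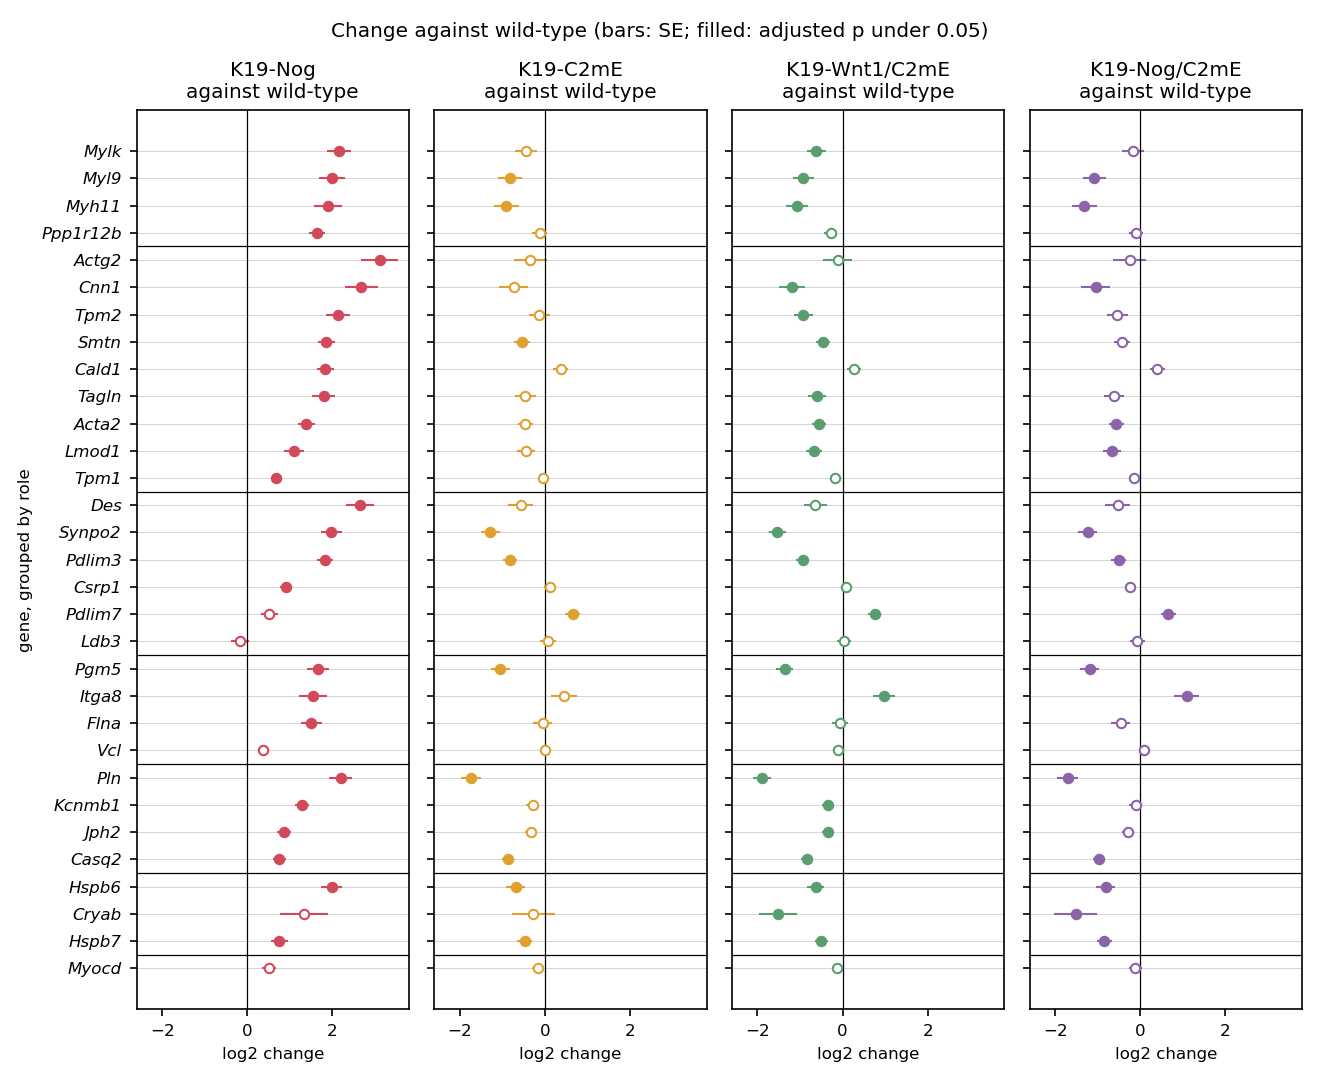
Log2 change of each contractile gene against wild-type in K19-Nog and the 3 C2mE genotypes, with its SE; filled points have an adjusted p under 0.05. Changes in K19-Nog reach 3.11 (Actg2) and those in C2mE genotypes reach -1.89 (Pln). Pdlim7, Itga8 and Cald1 lie to the right of 0 in all 3 C2mE genotypes, among 5, 5 and 4 genes that do so with C2mE alone, with Wnt1 and with noggin.

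Set side by side, 9 genes fell in all 3 C2mE genotypes against wild-type (Myh11, Myl9, Synpo2, Pdlim3, Pgm5, Pln, Casq2, Hspb6 and Hspb7), 10 were called in none (Actg2, Des, Cald1, Tpm1, Myocd, Flna, Vcl, Csrp1, Ldb3 and Ppp1r12b), and the rest in 1 or 2. A larger share of the 31 genes than of all genes was lower in each of the 3. Calls that failed with 1 mouse left out were those of Hspb6, Hspb7, Myh11, Myl9 and Smtn in K19-C2mE (adjusted p up to 0.171; the mice were wild-type 1, 2 or 3 or a K19-C2mE mouse, and for Hspb7 also mice outside the comparison), Acta2, Hspb7, Jph2, Kcnmb1, Mylk, Smtn and Tagln in K19-Wnt1/C2mE (up to 0.164; wild-type 2 or 3 or a K19-Wnt1/C2mE mouse, and for Kcnmb1 any 1 of 17 mice), and Acta2, Cnn1, Cryab, Lmod1 and Pdlim3 in K19-Nog/C2mE (up to 0.128; a wild-type or K19-Nog/C2mE mouse). All C2mE arrays of a genotype lay below the 3 wild-type arrays for 16 genes with C2mE alone, 13 with Wnt1 added and 17 with noggin added (background 24.7%, 21.8% and 25.8% of all genes). All 11 C2mE arrays lay below all 8 wild-type and K19-Wnt1 arrays for 6 genes, Myh11, Des, Synpo2, Pln, Pgm5 and Casq2 (background 7.76%). Among the 3 C2mE genotypes, the F test called none of the 31 genes at an unadjusted p under 0.001, where 7.62% of all genes were called; the smallest p of the 31 was 0.00756 (Tpm2). K19-Nog/C2mE against K19-C2mE (2.69% of all genes called) and K19-Wnt1/C2mE against K19-Nog/C2mE (12.8%, of which 5.08 percentage points were lower) also called none of them in limma. At an unadjusted p under 0.05 these comparisons held 4 genes each, against 14.4% and 26.3% of all genes. They were Cryab, Csrp1, Hspb7 and Itga8 in the first and Vcl, Csrp1, Hspb7 and Pdlim3 in the second. The methods' t-test called 0 and 2.

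C2mE was then compared on each background. Against K19-Wnt1, 21 contractile genes fell and 2 rose in K19-Wnt1/C2mE (44.6% of all genes called, 21.8% lower and 22.8% higher; median -0.70), with Pdlim7 and Itga8 as the rising ones, and none of the 31 interactions of Wnt1 with C2mE was called (1.51% of all genes were). Against K19-Nog, 27 fell and none rose in K19-Nog/C2mE (13.7% lower; median -1.96), the exceptions being Vcl, Itga8, Ldb3 and Pdlim7. The steepest were Pln (-3.90 ± 0.27, adjusted p = 7.68e-09), Cnn1 (-3.73 ± 0.38, 5.98e-07) and Actg2 (-3.36 ± 0.43, 7.78e-06).

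The interaction of Nog with C2mE asks whether C2mE changed a gene differently with noggin than without it. It was called for 23 of the 31 genes, all lower than the sum of the single changes, where 1.22% of all genes were called, 1.19% in that direction and 0.0275% in the other. For Actg2 the change with C2mE was -0.34 ± 0.38 without noggin and -3.36 ± 0.43 with it, an interaction of -3.02 ± 0.58 (adjusted p = 0.00842). For Cnn1 the interaction was -3.0 ± 0.52 (adjusted p = 0.00335) and for Des -2.61 ± 0.44 (adjusted p = 0.00302). Cald1 gave 0.37 ± 0.17 without noggin and -1.44 ± 0.19 with it (interaction -1.81 ± 0.26, adjusted p = 0.000692). The 8 genes without a call were Casq2, Jph2, Cryab, Itga8, Myocd, Pdlim7, Vcl and Ldb3. The mean of the 31 genes in the K19-Nog/C2mE mice (-0.64 to -0.38 from the wild-type mean) lay within the range of the other C2mE mice. The interaction, the rise in K19-Nog and the fall from it all rest on the same 2 K19-Nog mice. Without K19-Nog 1 the interaction was called for 11 genes; Acta2, Actg2, Flna, Hspb7, Kcnmb1, Lmod1, Myh11, Myl9, Mylk, Pgm5, Tagln and Tpm1 were not called then, with adjusted p from 0.0516 (Flna) to 0.318 (Hspb7).

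**Figure D4:**
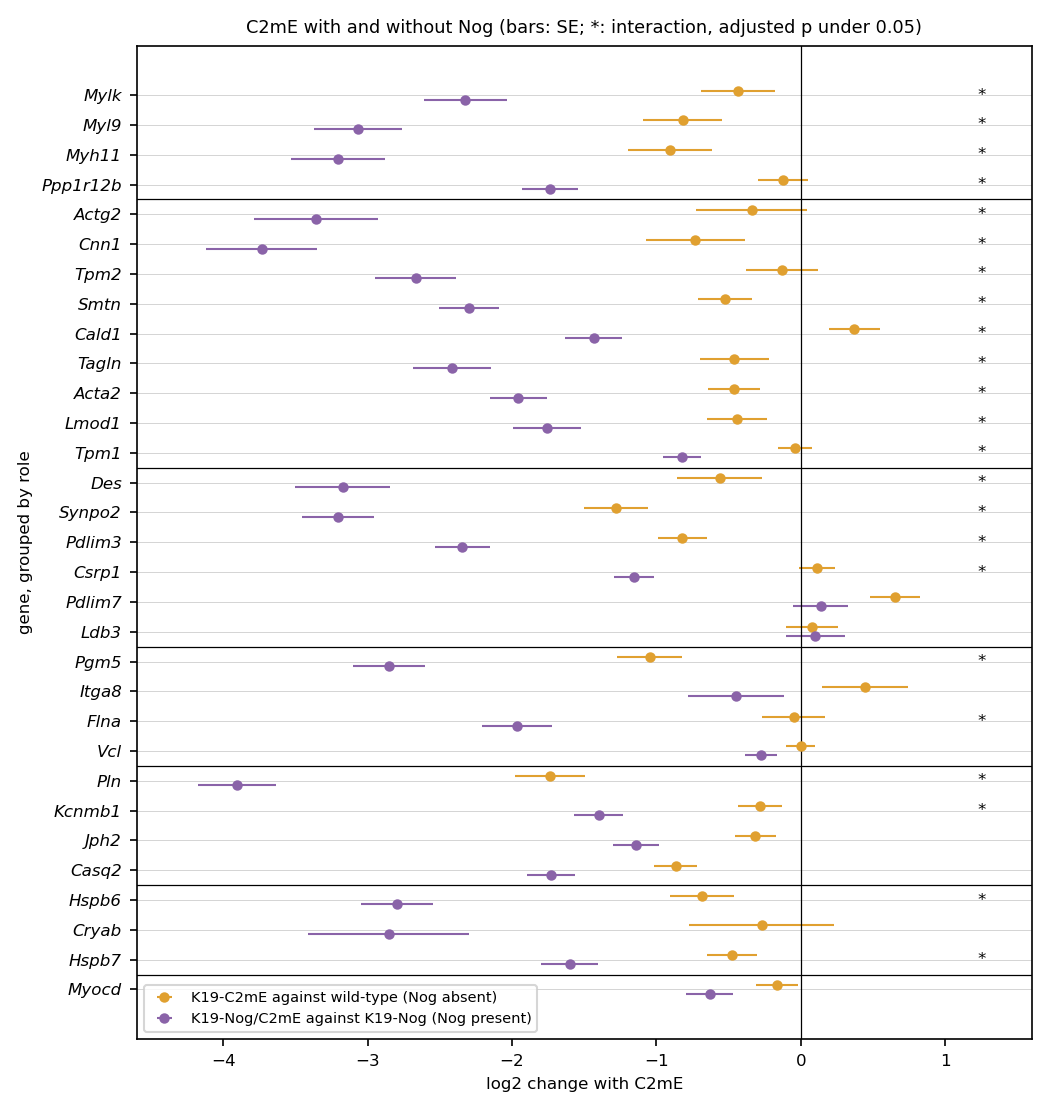
Log2 change with C2mE for each contractile gene, without noggin (K19-C2mE against wild-type) and with it (K19-Nog/C2mE against K19-Nog), with SE; an asterisk marks an interaction at an adjusted p under 0.05. The changes with noggin reach -3.90 (Pln) and lie left of those without it for all 31 genes except Ldb3.

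Other genes of the contractile cell were read from 3 lists. Over all genes, 2.12% rose and 0.945% fell in K19-Nog against wild-type. Of 25 measured genes of contraction signalling (receptors, calcium channels, kinases and cyclic nucleotide enzymes), 11 rose and 1 fell in K19-Nog, with a median of 0.52. Ryr2, a calcium release channel of the reticulum, was below the median level of all probe sets on every array. It read 5.59 and 5.67 in K19-Nog and 3.86 to 4.56 in all other mice, a rise of 1.46 (adjusted p = 1.95e-06). Mrvi1, which inhibits calcium release downstream of nitric oxide, rose by 1.35 (adjusted p = 0.000112) and Rgs2, a brake on receptor signalling, by 1.11 (adjusted p = 0.0112). With C2mE 4, 7 and 6 of the 25 fell and 3, 4 and 2 rose, where 13.7%, 22.5% and 16.6% of all genes fell and 15.4%, 21.1% and 16.0% rose, so that the share called was near that of all genes; Gucy1a1, a subunit of the nitric oxide receptor, fell by 1.49 ± 0.21, 1.46 ± 0.19 and 1.04 ± 0.21, while Rgs2 rose by 0.90 ± 0.21, 1.33 ± 0.19 and 0.93 ± 0.21.

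Of 19 transcription regulators of muscle, 2 rose in K19-Nog, Hey2 and Barx1 (0.92 for Barx1, a homeobox gene of stomach mesenchyme), and the median was 0.14. Hey2 was below the median level of all probe sets on every array. Of all genes 2.12% rose in K19-Nog. With C2mE 6, 4 and 3 of the 19 fell and 3, 4 and 4 rose. Of all genes 13.7%, 22.5% and 16.6% fell and 15.4%, 21.1% and 16.0% rose. The shares called were near those, except for the 6 that fell with C2mE alone. The change was below 0 for 15, 15 and 14 of the 19 (medians -0.20, -0.24 and -0.20). Among the genes called lower were Nr2f2, Gata6, Elk1 and Prdm6. Klf4, with 1 of the 4 largest changes of the list, read 12.13 to 12.29 in wild-type and 11.87 and 11.74 in K19-Nog. It read 11.72 to 12.34, 11.02 to 11.92 and 11.84 to 11.97 with C2mE alone, with Wnt1 and with noggin. Srf, the factor that binds the CArG box, gave -0.03 ± 0.15 in K19-Nog and rose by 0.29 ± 0.12 and 0.37 ± 0.13 in the compound C2mE genotypes (adjusted p = 0.0483 and 0.0366), where most contractile genes called were lower. Its cofactor Mrtfb rose in all 3 C2mE genotypes (0.62 ± 0.10, 0.99 ± 0.09 and 0.62 ± 0.10), and so did Fhl2 (0.64 ± 0.17, 0.66 ± 0.15 and 0.82 ± 0.17), a LIM protein that binds serum response factor; neither gene was called in K19-Nog.

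Of 37 genes of the dense plaque, sarcolemma and caveolae, 15 rose and none fell in K19-Nog (median 0.41). There 2.12% of all genes rose and 0.945% fell. In the C2mE genotypes this list divided, with 11, 10 and 8 genes rising and 13, 14 and 13 falling with C2mE alone, with Wnt1 and with noggin, against the same shares of all genes (15.4%, 21.1% and 16.0% higher, 13.7%, 22.5% and 16.6% lower). Synm (synemin), a partner of desmin, rose by 1.50 in K19-Nog (adjusted p = 0.00764) and fell by 1.09 ± 0.28, 1.77 ± 0.25 and 1.83 ± 0.28 with C2mE. Actn1, an alpha-actinin, rose in K19-Nog (0.96 ± 0.16, adjusted p = 0.00136) and also rose in the C2mE genotypes (1.55 ± 0.14, 1.97 ± 0.13 and 1.77 ± 0.14).

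Markers of other cells that share the stomach wall moved in part with the contractile genes. In K19-Nog, 6 of 18 measured markers of enteric neurons and glia rose and none fell (median 0.39). For this and the marker lists below, the shares of all genes in K19-Nog were 2.12% higher and 0.945% lower. Vip, a transmitter of enteric neurons, read 8.62 and 8.40 in K19-Nog and 3.75 to 5.63 in all other mice, a rise of 3.90 (adjusted p = 1.96e-06), and Hand2 and Uchl1 rose by 2.63 and 1.83. With C2mE against wild-type 3, 7 and 7 of the 18 fell and 0, 3 and 1 rose. Of all genes 13.7%, 22.5% and 16.6% fell there and 15.4%, 21.1% and 16.0% rose. Against K19-Nog, 10 of the 18 fell and 0 rose in K19-Nog/C2mE (13.7% of all genes fell). In the interaction of Nog with C2mE 6 of the 18 were called lower, against 1.19% of all genes. The summed signal of the neuron list was 2145 to 2602 in K19-Nog against 1051 to 1138 in wild-type, and 5 of the 18 markers (Elavl4, Phox2a, Nefm, Tubb3 and Gfap) were below the median level of all probe sets on every array. Kit, the marker of the pacemaker cells of Cajal, gave 0.32 ± 0.30 (adjusted p = 0.676) in K19-Nog, and 1 of 8 markers of these cells rose. Of 7 adipocyte markers 3 rose in K19-Nog, with Adipoq at 7.52 and 10.76 against 3.49 to 3.64 in wild-type; 1 K19-Wnt1 mouse (K19-Wnt1 1) read 7.62. Against K19-Nog, 4 of the 7 fell in K19-Nog/C2mE, where 13.7% of all genes fell. With C2mE against wild-type 1, 3 and 2 fell, against 13.7%, 22.5% and 16.6% of all genes. The summed adipocyte signal was 2683 and 6811 in K19-Nog against 2321 to 2511 in wild-type.

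For muscle of other kinds, 1 of 10 markers of pericytes and vascular muscle rose in K19-Nog (Mcam, 1.33, adjusted p = 0.0268), with a summed signal of 6430 to 7151 against 3572 to 4710 in wild-type. The mean level of these 10 markers was 7.23 to 7.35 in wild-type. With C2mE alone, with Wnt1 and with noggin it was 7.27 to 7.66, 7.43 to 7.87 and 7.10 to 8.02, not lower as for most contractile genes. Of 26 markers of striated muscle, 20 were below the median level of all probe sets on every array. In K19-Nog 1 rose (Ckm, 1.32 ± 0.15) and 1 fell (Tnni1), where 2.12% of all genes rose and 0.945% fell. Of 8 markers of heart muscle 4 were below that median on every array. Tnni3 of that list read 11.38 to 11.65 in wild-type, 11.36 and 11.34 in K19-Nog and 4.86 to 8.57 in the C2mE mice. Of 15 markers of fibroblasts 1 rose in K19-Nog, while 4, 5 and 4 fell and 2, 4 and 2 rose with C2mE against wild-type. The shares of all genes that fell with C2mE were 13.7%, 22.5% and 16.6%, and 15.4%, 21.1% and 16.0% rose. The part of these other cells, and of the outer layers taken with each sample, in the contractile result was not tested. The plot of list means shows the contractile, signalling, plaque, neuron and adipocyte lists highest in K19-Nog, and the squamous list highest in K19-C2mE.

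**Figure D5:**
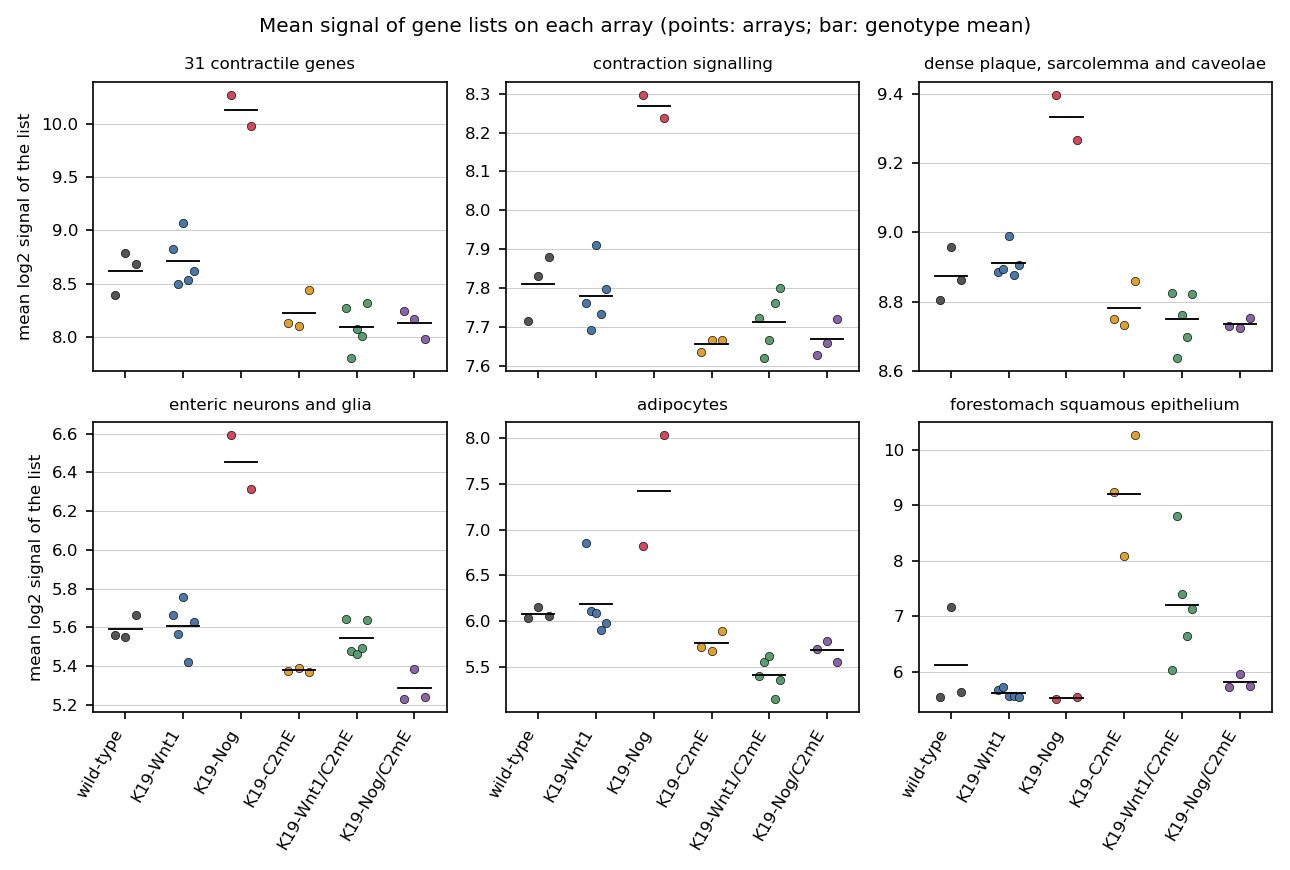
Mean log2 signal of 6 gene lists on each array, with a bar at the genotype mean. The contractile genes read 9.98 to 10.28 in K19-Nog against 8.39 to 8.79 in wild-type, and the squamous list reads 8.09 to 10.26 in K19-C2mE.

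The squamous level and the Y-linked level were each set beside the counts. The share of all genes called in these fits is not reported here. A lower count therefore cannot be read as particular to the contractile genes. With the squamous level as a covariate 26 genes rose in K19-Nog, whereas 5 were called in K19-C2mE (median -0.34) and 3 in the interaction of Nog with C2mE, where the median was -1.59 against -1.77 without the covariate. Taking the Y-linked level into the fit, 25 rose in K19-Nog (median 1.67), 10 were called in K19-C2mE and 24 in the interaction. On the 12 arrays low in Y-linked signal alone, which leave 1 wild-type mouse (wild-type 2, the highest of its genotype in squamous signal), 1 K19-C2mE mouse and 1 K19-Wnt1 mouse, each assumed to vary like the other genotypes, the median in K19-Nog was 1.48 with 30 of 31 genes above 0, and 8 were called (Tpm2, Pln, Des, Ppp1r12b, Hspb6, Pgm5, Pdlim3 and Smtn); in the interaction, which then has 2 arms of 1 mouse each, the median was -1.46 and 1 gene, Pln, was called. All 5 mice of K19-Nog/C2mE and K19-Nog are low in Y-linked signal, so that comparison holds the same mice in both fits.

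Dimmer probe sets of the same genes were read as well. The 31 genes have 69 probe sets tied to a single gene, 11 genes with 1 and 20 with several. In K19-Nog 43 of the 69 rose and none fell, and 29 of the 38 dimmer probe sets had the sign of the brightest. In K19-Nog/C2mE against K19-Nog 49 fell and none rose. Against wild-type, 13, 27 and 23 of the 69 fell with C2mE alone, with Wnt1 and with noggin, and 1, 4 and 2 rose. There 29, 28 and 30 of the 38 dimmer probe sets had the sign of the brightest. The share of all probe sets called is not reported here.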

How the data were processed

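RNA of the glandular stomach of 21 mice was hybridised to Affymetrix Mouse Genome 430 2.0 arrays, 1 mouse per array. The authors deposited linear signal intensity from RMA (background correction, quantile normalization and summary per probe set) in Affymetrix Power Tools within Rosetta Resolver; versions are not given in the sources used here. They also deposited a log10 ratio of each signal over the wild-type mean, limited to 2 in either direction, which matched the signal to within 5.31e-05. RMA shrinks differences of dim probe sets, and the number of arrays limits the precision. Here log2 of the signal was taken, with no pseudocount. Each of 18193 genes was given by its brightest probe set tied to 1 gene, among 45037 probe sets (34945 with 1 gene, 932 with several, 9160 with none).

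A limma model (limma 3.58.1, R 4.3.3) with 1 coefficient per genotype was fitted to all probe sets of all 21 arrays, with 15 residual degrees of freedom, so that K19-Nog (n = 2) shares its spread with the other genotypes. Benjamini-Hochberg adjustment ran over the 18193 genes; an adjusted p under 0.05 was called, and the F test among the 3 C2mE genotypes used an unadjusted p under 0.001. Errors are SE of the model. p-values measure the spread between mice as labelled. Values on every array are given for the 2 brightest genes of each role, for Myocd, for genes called against the common direction and for genes called in an interaction; the rest are given by range. From other lists up to 4 genes with the largest changes are given with values, with Srf and Kit. Some further genes of these lists are named without values, as called or as dim. Members and lists were chosen with earlier results of these data known. Code was tested on simulated data. Alternatives were the ratio table, median centring, a filter on dim probe sets, all probe sets, another variance model, the methods' t-test, a replicate block, a stricter threshold, a Y-linked covariate (Kdm5d, Eif2s3y and Uty; Ddx3y has no probe set tied to 1 gene) and leaving out each array; fits on the arrays low in Y-linked signal and with a squamous covariate were chosen after seeing the data.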

Additional observations from a re-analysis of the deposited data

Results flagged for a closer look

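One array stood far from the rest of its genotype for 3 genes, among 64 sets of values in a genotype of 5 mice (each of the 31 genes and their mean, in 2 genotypes), where chance alone flags about 1 in 20. Flna read 10.54 in K19-Wnt1 4 against 9.62 to 9.87 in the remaining K19-Wnt1 mice. Csrp1 read 11.32 in K19-Wnt1/C2mE 1 against 10.96 to 11.05 in the remaining mice of that genotype. Hspb7 read 7.05 in K19-Wnt1 1, below the 7.51 to 7.68 of the remaining K19-Wnt1 mice.

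The change with C2mE differed between mice with and without noggin for 23 contractile genes by the interaction term of limma, always with a lower change where noggin was present. Among the C2mE mice themselves, K19-Nog/C2mE against K19-C2mE called none of the 31 genes, with 15 above 0 and 16 below (median -0.10). Of the 69 probe sets of these genes, 2 were called lower and 0 higher there. The interaction term equals the difference between these 2 genotypes less the change of K19-Nog from wild-type. The thick filament genes gave -2.30 (Myh11, adjusted p = 0.00801), -2.25 (Myl9), -1.89 (Mylk) and -1.61 (Ppp1r12b). Among the thin filament genes the interaction was -3.02 for Actg2, -3.0 for Cnn1, -2.53 for Tpm2, -1.96 for Tagln, -1.81 for Cald1, -1.77 for Smtn, -1.49 for Acta2, -1.32 for Lmod1 and -0.78 for Tpm1. The adaptors gave -2.61 for Des, -1.92 for Synpo2, -1.52 for Pdlim3 and -1.26 for Csrp1. Flna gave -1.91 and Pgm5 -1.81 at the membrane, Pln gave -2.17 and Kcnmb1 -1.12 among the calcium genes, and the small heat shock proteins Hspb6 and Hspb7 gave -2.11 and -1.12. Adjusted p ranged from 0.000692 (Cald1) to 0.0425 (Lmod1).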

How the results depend on the processing

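K19-Nog held 2 mice, and 11 of the 23 interactions of Nog with C2mE and 19 of the 26 rises in K19-Nog held in all 21 fits that left out 1 mouse. No count turned its direction. The counts of the alternative fits in this section stand without the share of all genes called in the same fit. They do not tell whether calls over all genes moved alike. With 1 mouse left out the calls ranged from 6 to 12 in K19-C2mE against wild-type (6 without wild-type 2 or wild-type 3, against 11 with all mice), 0 to 2 in K19-Wnt1/C2mE against K19-C2mE, 0 to 1 in K19-Wnt1/C2mE against K19-Nog/C2mE and 11 to 24 in the interaction of Nog with C2mE (11 without K19-Nog 1). A change of at least 1 log2 unit left 3 genes in K19-C2mE, 6 in K19-Wnt1/C2mE and 8 in K19-Nog/C2mE against wild-type, 7 in K19-Wnt1/C2mE against K19-Wnt1 and 0 in K19-Wnt1/C2mE against K19-C2mE. The methods' t-test after Benjamini-Hochberg adjustment called 5, 12, 7 and 0 genes in K19-C2mE, K19-Wnt1/C2mE, K19-Nog/C2mE and K19-Nog against wild-type, 12 in K19-Nog/C2mE against K19-Nog, 0 in K19-Wnt1/C2mE against K19-C2mE and 2 in the interaction of Nog with C2mE; unadjusted, it called 29 in K19-Nog, 2 in K19-Wnt1/C2mE against K19-Nog/C2mE and 2 in the interaction of Wnt1 with C2mE. It does not share the spread between genes. On the arrays low in Y-linked signal, with 1 mouse each of wild-type, K19-C2mE and K19-Wnt1 that is assumed to vary like the other genotypes, the counts were 3, 12, 9 and 8 against wild-type in the same order, 13 in K19-Wnt1/C2mE against K19-Wnt1, 0 in K19-Wnt1/C2mE against K19-C2mE, 1 in K19-Wnt1/C2mE against K19-Nog/C2mE and 1 in the interaction of Nog with C2mE. With the squamous covariate they were 5 in K19-C2mE, 0 in K19-Wnt1/C2mE against K19-C2mE and 3 in that interaction. K19-Wnt1/C2mE against K19-C2mE also gave 0 with only the compared genotypes, with the Y-linked covariate and with the replicate block, and 2 with the mean of all probe sets; K19-Wnt1/C2mE against K19-Nog/C2mE gave 1 without dim probe sets, with the trended variance and with the replicate block. The cause of these changes was not tested beyond the fewer samples that some fits hold.

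Replicate numbers recur between genotypes, but same-numbered mice did not deviate together: over 38 pairs the correlation of their deviations ran from -0.42 to 0.27 (median 0.02, 8 pairs over 0.1), and 3 of the arrays correlated best with their own number. With the replicate block the counts were 9, 20, 15 and 26 in K19-C2mE, K19-Wnt1/C2mE, K19-Nog/C2mE and K19-Nog against wild-type, 23 and 27 for C2mE against K19-Wnt1 and K19-Nog, and 20 in the interaction of Nog with C2mE. Median centring moved the median of all genes by at most 0.03, the ratio table by at most 3.1e-05 and leaving out dim probe sets by at most 0.09. The median of the contractile genes alone moved further when each gene was given by the mean of its probe sets. In K19-Nog against wild-type it was then 1.22, where the brightest probe sets gave 1.64. In the interaction of Nog with C2mE it was -1.35, where the brightest gave -1.77. With median centring these medians were 1.61 and -1.76.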
